A study of Homo sapiens with 12 samples.

Results

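The 10 genes described here are the repressors and nuclear receptors of the circadian clock with 1 of its output factors: *PER1*, *PER2*, *PER3*, *CRY1*, *CRY2*, *BHLHE40*, *BHLHE41*, *NR1D1*, *NR1D2* and *DBP*. They were taken by symbol from a table of normalised read counts for 36601 genes, and all 10 were present. The set was chosen by function, but with earlier normalised counts and fold changes of these libraries known, among them the higher *PER1* in cells given both drugs than in cells given metformin alone. The values of the 10 genes are therefore a description and carry no test. All 10 were among the 15376 genes with a mean normalised count of at least 10, and each exceeded it in all 12 libraries.

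The cells were KP4, a human pancreatic cancer cell line. They received for 24 h either the vehicle DMSO (DMSO), 10 mM metformin (Met), 5 nM FK866 (FK), or 10 mM metformin with 5 nM FK866 (Met+FK), and total RNA depleted of ribosomal RNA was sequenced in 3 libraries per treatment. Metformin is a biguanide that inhibits complex I of the respiratory chain, where NADH is oxidised to NAD, and FK866 inhibits NAMPT, the enzyme that salvages nicotinamide to rebuild NAD. All groups are from 1 cell line, and no source used here says whether the libraries of a treatment came from separate cultures, so the spread between them may be technical. There is also 1 time point only, so a change in the level of a rhythmic transcript cannot be told apart from a shift in its phase.

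In nearly every cell, CLOCK and BMAL1 (gene *ARNTL*) bind E-box sequences and activate *PER*, *CRY*, *NR1D1*, *NR1D2* and *DBP*. The PER and CRY proteins then repress CLOCK and BMAL1, and the REV-ERB receptors encoded by *NR1D1* and *NR1D2* repress *ARNTL*, which closes a loop of about a day. BHLHE40 and BHLHE41 compete at the same E-boxes, while DBP activates genes that carry a D-box. NAD is tied to this loop: *NAMPT* is itself a clock target, and the NAD-dependent deacetylase SIRT1 acts on PER2 and BMAL1.

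Between 30667735 and 41052203 read pairs were counted per library (median 34767231). The 6 ductal keratin and adhesion markers summed to 21392 to 22295 normalised counts per library in DMSO, 14168 to 18449 in FK, 12200 to 14799 in Met and 12219 to 15255 in Met+FK. These sums were mostly *KRT18* and *KRT8*. The means of *KRT7*, *KRT8*, *KRT18* and *KRT19* were lower in each drug group than in DMSO. *CDH1* went the other way under metformin, with means of 28.5 in DMSO, 28.6 in FK, 61.4 in Met and 71.3 in Met+FK. *EPCAM* did not reach a mean of 10. *VIM* and *CDH2*, markers of a mesenchymal state, summed to 96965 to 124906. The 3 acinar and 2 islet markers summed to at most 1.65 counts in any library, and *PTPRC*, the leukocyte marker, lay between 101 and 304. The 3 fibroblast markers, mostly *COL1A1*, summed to 128 to 177 in DMSO, 228 to 308 in FK, 53 to 80 in Met and 57 to 83 in Met+FK. The 2 endothelial markers summed to at most 16.4. Libraries also differed in how their values ran with the GC content of genes. Relative to the mean of all libraries, the slope was 0.14 ± 0.08 (SD, n = 3) log2 units per 10 percentage points of GC in DMSO, -0.09 ± 0.14 in FK, -0.05 ± 0.11 in Met and -0.003 ± 0.06 in Met+FK, and every FK library lay below every DMSO library. Differences with the trends on GC content and transcript length both removed are therefore given where they change a result. Below, this is called the GC trend removed, and GC content was not removed alone.

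The promoters of the 5 genes that were differentially expressed in Met+FK against DMSO are shown because the clock factors act through short motifs in them. Each line is the 250 bases before a RefSeq start (GRCh38.p14), 5′ to 3′ on the strand of the gene, with matches in capitals. The motifs searched on both strands were the E-box CACGTG, the E′-box CACGTT, the D-box TTATGTAA or TTACGTAA, and the cyclic AMP response element TGACGTCA; the matches in these genes do not overlap each other. For *NR1D2* and *PER3*, which have more than 1 RefSeq window, the window that holds a match is shown.
PER1, chr17:8152405-8152654, minus strand: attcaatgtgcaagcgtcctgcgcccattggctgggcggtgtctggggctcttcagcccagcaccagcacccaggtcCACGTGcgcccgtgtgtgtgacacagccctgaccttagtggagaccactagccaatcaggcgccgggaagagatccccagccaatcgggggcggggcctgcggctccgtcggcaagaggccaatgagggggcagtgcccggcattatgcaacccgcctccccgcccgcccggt
NR1D1, chr17:40100590-40100839, minus strand: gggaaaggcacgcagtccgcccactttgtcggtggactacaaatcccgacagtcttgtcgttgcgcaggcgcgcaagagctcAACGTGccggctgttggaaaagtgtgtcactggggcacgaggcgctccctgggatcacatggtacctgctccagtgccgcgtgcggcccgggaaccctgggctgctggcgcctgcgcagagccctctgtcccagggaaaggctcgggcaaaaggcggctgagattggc
NR1D2, chr3:23945871-23946120, plus strand: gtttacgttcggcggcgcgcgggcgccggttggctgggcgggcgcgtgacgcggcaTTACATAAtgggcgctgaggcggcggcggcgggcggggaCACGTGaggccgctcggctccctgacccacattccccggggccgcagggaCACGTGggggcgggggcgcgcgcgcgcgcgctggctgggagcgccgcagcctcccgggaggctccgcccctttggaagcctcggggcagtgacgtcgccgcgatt
PER3, chr1:7784041-7784290, plus strand: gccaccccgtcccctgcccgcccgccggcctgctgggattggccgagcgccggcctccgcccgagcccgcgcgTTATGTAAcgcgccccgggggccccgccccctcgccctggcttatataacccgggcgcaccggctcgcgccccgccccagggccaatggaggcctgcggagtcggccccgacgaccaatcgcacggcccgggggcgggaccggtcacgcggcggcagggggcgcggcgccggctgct
DBP, chr19:48637380-48637629, minus strand: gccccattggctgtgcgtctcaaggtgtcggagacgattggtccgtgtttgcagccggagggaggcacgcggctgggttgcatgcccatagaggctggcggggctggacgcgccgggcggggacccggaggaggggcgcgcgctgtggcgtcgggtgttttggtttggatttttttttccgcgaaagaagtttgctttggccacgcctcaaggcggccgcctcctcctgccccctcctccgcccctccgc

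*PER1* had an E-box 173 bases before the start. *NR1D2* had E-boxes 155 and 105 bases before the start and a D-box at 194, the only promoter of the 10 with both motifs. *NR1D1* had an E′-box at 168, *PER3* a D-box at 177, and the *DBP* window held none of these letters. Windows were found for 10 of 10 genes (13 windows). An E-box was present in 4 of the 13 windows, from 4 genes, the others being *BHLHE40* (245 bases) and *BHLHE41* (48 bases), against 6.34% of 35116 RefSeq windows of the same length. An E′-box was present in 4 of the 13 windows, from 4 genes, the others being *CRY1*, *CRY2* and *PER2*, against 4.55% of windows. The D-box was present in 2 of the 13 windows, from 2 genes, against 0.94% of windows, and the cyclic AMP response element in 0 of the 13, against 1.65%. *BHLHE41* and *PER2*, whose levels differed least between treatments, held an E-box and an E′-box as well. Of the *PER2* window, 216 bases overlap an annotated exon of the gene. Whether any match bears on the level of a gene was not tested, and sequence outside these windows was not searched.

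The first question was how the 10 genes stood in Met+FK against vehicle. All 10 means were higher in Met+FK, and 8 of the 10 had every Met+FK library above every DMSO library, as did 30.5% of all genes tested. In 0 of the 10 was every Met+FK library below (30.4% of all genes). A gene was called differentially expressed (DEG) where limma-trend gave an adjusted p-value below 0.05 and the change was larger than 1.5-fold. By this measure *PER1*, *NR1D2*, *DBP*, *NR1D1* and *PER3* were DEGs, all higher, while 25.1% of all genes were called in this comparison, 13.7% higher and 11.3% lower. Because the set was chosen with results known, nothing is read from these counts. The median log2 fold change was 0.61 over the 10 genes and 0.01 over all genes tested.

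**Figure D1:**
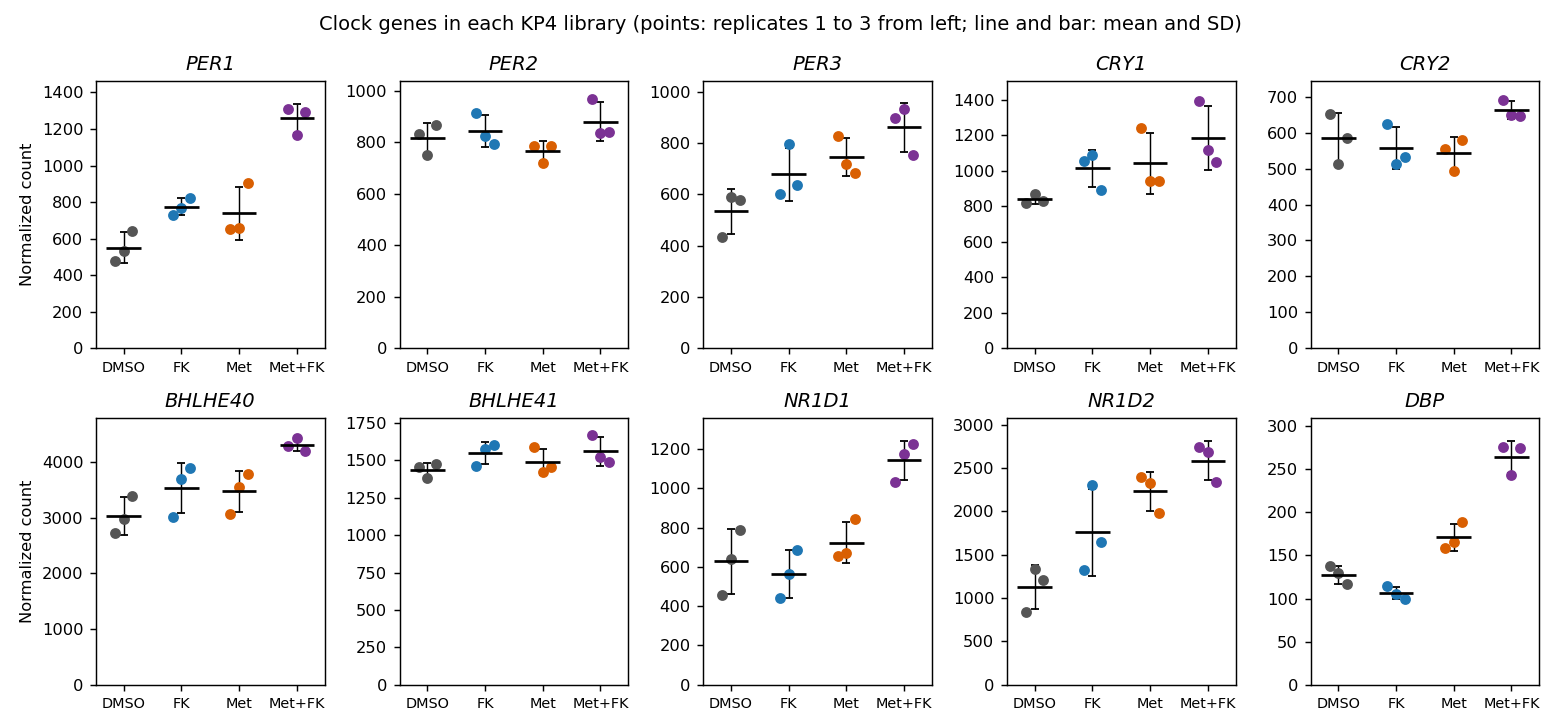
Normalised read counts of the 10 clock genes (y axes, from 0) in each of the 12 KP4 libraries by treatment (x axes); points are replicates 1 to 3 from left, lines are means and bars are SD. In PER1, BHLHE40, NR1D1 and DBP the 3 Met+FK libraries sit above all 9 others, while PER2 and BHLHE41 are nearly level across treatments.

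*PER1* (ENSG00000179094, hg38 chr17:8140472-8156506, minus strand) encodes a repressor that is also induced within an hour by many signals. Its normalised counts were 478, 532 and 642 in the DMSO libraries, 731, 768 and 823 in FK, 653, 656 and 904 in Met, and 1311, 1169 and 1296 in Met+FK. Each single drug gave values above all DMSO libraries, and Met+FK lay above all other libraries. The log2 fold change against DMSO was 0.50 ± 0.13 (SE) for FK and 0.41 ± 0.13 for Met, both under 1.5-fold, and 1.20 ± 0.13 for Met+FK. Adding FK866 to metformin gave 0.79 ± 0.13, the only one of the 10 genes called in that comparison, in which 0.0585% of all genes were called. That call was held in 1 of 6 fits that left out 1 library; without Met replicates 1 or 2 or any 1 of the Met+FK libraries the log2 fold change was 0.71 to 0.84 and was not called. With the GC trend removed, FK against DMSO was 0.68 and was called.

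*PER2* (ENSG00000132326, chr2:238244044-238290102, minus strand), the repressor that SIRT1 deacetylates, was nearly flat. Its counts were 831, 748 and 865 in DMSO, 913, 825 and 793 in FK, 786, 719 and 786 in Met, and 966, 834 and 839 in Met+FK. Met+FK and DMSO overlapped, and the log2 fold change between them was 0.11 ± 0.09.

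*PER3* (ENSG00000049246, chr1:7784320-7845177, plus strand), the member of the family least needed for rhythm, had counts of 432, 589 and 578 in DMSO, 600, 794 and 637 in FK, 827, 719 and 685 in Met, and 896, 934 and 753 in Met+FK. All libraries with a drug lay above all DMSO libraries. The log2 fold change was 0.35 ± 0.14 for FK, 0.49 ± 0.14 for Met and 0.70 ± 0.14 for Met+FK, of which the last was a DEG. That call was lost without DMSO replicate 1 (0.55) and with the GC trend removed (0.57). Met+FK and Met overlapped (0.21 ± 0.14).

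The cryptochromes are the stronger repressors of CLOCK and BMAL1. *CRY1* (ENSG00000008405, chr12:106991364-107093549, minus strand) had counts of 818, 871 and 829 in DMSO, 1055, 1090 and 893 in FK, 1241, 942 and 942 in Met, and 1391, 1114 and 1049 in Met+FK. Every treated library was above every DMSO library, with log2 fold changes of 0.27, 0.30 and 0.49 (SE 0.13 each) for FK, Met and Met+FK, none of them over 1.5-fold. *CRY2* (ENSG00000121671, chr11:45847118-45883248, plus strand) went from 653, 514 and 586 in DMSO to 625, 514 and 534 in FK, 556, 492 and 580 in Met, and 692, 651 and 646 in Met+FK. Its single-drug libraries overlapped DMSO, and Met+FK lay above Met in every library (0.29 ± 0.11) but overlapped DMSO (0.19 ± 0.11).

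*BHLHE40* and *BHLHE41* encode DEC1 and DEC2, E-box repressors that are also induced by hypoxia and serum. *BHLHE40* (ENSG00000134107, chr3:4979437-4985323, plus strand) had counts of 2719, 2983 and 3381 in DMSO, 3018, 3690 and 3889 in FK, 3073, 3558 and 3779 in Met, and 4279, 4434 and 4201 in Met+FK. The single drugs overlapped DMSO, and Met+FK lay above all other libraries with a log2 fold change of 0.51 ± 0.11 against DMSO and 0.32 ± 0.11 against Met. *BHLHE41* (ENSG00000123095, chr12:26120030-26125037, minus strand) stayed between 1380 and 1669 in all 12 libraries, and its largest log2 fold change in any comparison was 0.12 ± 0.08. It shares 3047 bases with *SSPN* on the other strand, which had 155 ± 20.2 normalised counts (SD, n = 3) in DMSO and 161 ± 20.1 in Met+FK.

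*NR1D1* (ENSG00000126368, chr17:40092793-40100589, minus strand) encodes REV-ERBα. Its counts were 458, 639 and 786 in DMSO, 440, 563 and 685 in FK, 656, 671 and 844 in Met, and 1033, 1172 and 1223 in Met+FK. The single drugs overlapped DMSO while Met+FK stood above all 9 other libraries. The log2 fold change was -0.15 ± 0.18 for FK, 0.23 ± 0.18 for Met and 0.89 ± 0.18 for Met+FK against DMSO. Against Met, Met+FK stood 0.66 ± 0.18 higher. The last was not called, but was called with the replicate number as a block, with DESeq2, and in a fit of the 6 Met and Met+FK libraries alone. The *NR1D1* gene shares 1075 bases with *THRA* on the other strand, and whether the reads were counted by strand is not stated. *THRA* had 961 ± 1.47 (SD, n = 3) normalised counts in DMSO and 544 ± 39.5 in Met+FK, the opposite direction.

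*NR1D2* (ENSG00000174738, chr3:23945286-23980617, plus strand), which encodes REV-ERBβ, was highest in the groups with metformin. Its counts were 841, 1332 and 1208 in DMSO, 1325, 2302 and 1641 in FK, 2390, 2323 and 1977 in Met, and 2742, 2681 and 2333 in Met+FK. The FK and DMSO libraries overlapped, while all libraries with metformin lay above all DMSO libraries. The log2 fold change was 1.01 ± 0.18 for Met and 1.22 ± 0.18 for Met+FK against DMSO, 0.59 ± 0.18 for Met+FK against FK and 0.21 ± 0.18 for Met+FK against Met. For FK against DMSO it was 0.63 ± 0.18. *NR1D2* is a gene of low GC content (38.3%), and with the GC trend removed the FK value was 0.24 and no longer called, and that for Met was 0.68, still called. Without DMSO replicate 1 or 3, or FK replicate 2, the FK call was lost as well (0.41 to 0.69). The call for Met+FK against FK was lost without FK replicate 1 or 3, or Met+FK replicate 1 or 2 (0.41 to 0.56), and with edgeR and DESeq2 (both 0.56). *NR1D2* shares 1306 bases with *NKIRAS1* on the other strand, whose log2 fold change in Met+FK against DMSO was 0.22.

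*DBP* (ENSG00000105516, chr19:48630030-48637379, minus strand), the D-box activator and a direct CLOCK and BMAL1 target, had the lowest counts of the set. They were 137, 129 and 117 in DMSO, 114, 105 and 99.9 in FK, 159, 165 and 189 in Met, and 276, 243 and 274 in Met+FK. No treatment overlapped any other: FK lay lowest, then DMSO, Met and Met+FK. The log2 fold change was -0.26 ± 0.12 for FK, 0.42 ± 0.12 for Met and 1.05 ± 0.12 for Met+FK against DMSO. Against FK, Met+FK stood 1.30 ± 0.12 higher, the largest difference of the 10 genes in any comparison, and 0.63 ± 0.12 higher against Met. The last was not called, but was called with the replicate number as a block and with DESeq2. *DBP* has a high GC content (65.2%). With the GC trend removed, FK against DMSO was -0.02 and Met against DMSO was 0.61, then called. *DBP* shares 688 bases with *SPHK2* on the other strand, whose log2 fold change in Met+FK against DMSO was -0.25.

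**Figure D2:**
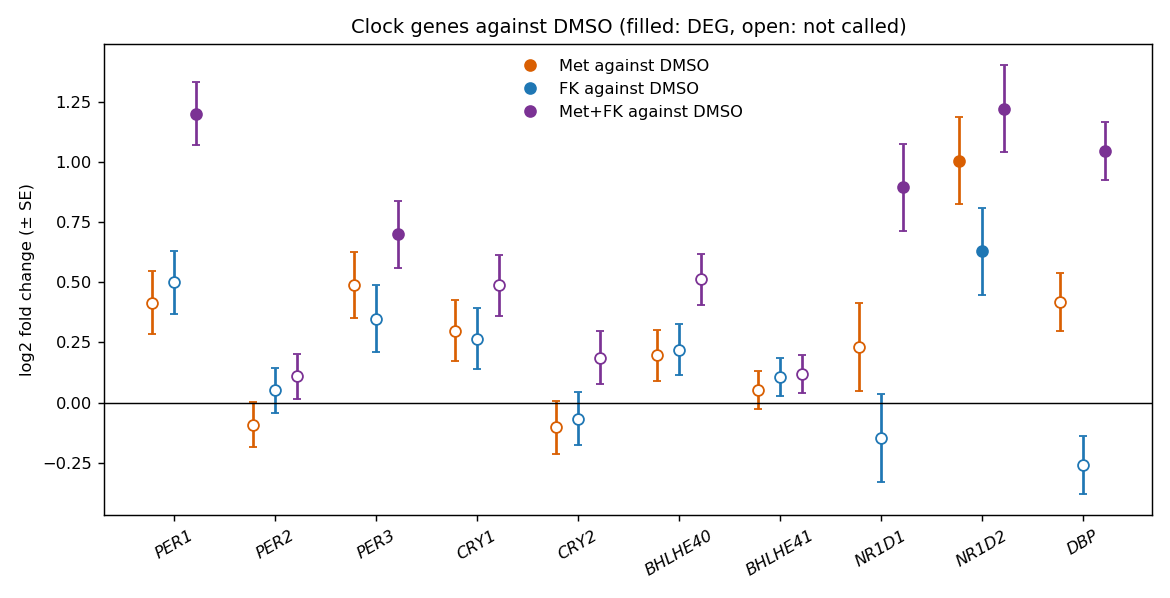
Log2 fold change against DMSO (y axis, log2 of normalised count + 1; bars are SE from the limma fit, n = 3 per group) of the 10 clock genes (x axis) for Met, FK and Met+FK; filled points are DEGs. The Met+FK point is the highest of the 3 for every gene. Filled are 5 of the 10 for Met+FK (25.1% of all genes), 1 for Met (23.0%) and 1 for FK (3.49%), and nothing is read from these counts.

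Under metformin alone, *NR1D2* was the only DEG of the 10, where 23.0% of all genes were called, 12.8% higher and 10.2% lower. The Met libraries did not overlap DMSO for 5 of the 10 genes (*PER1*, *PER3*, *CRY1*, *NR1D2* and *DBP*), all higher, as was seen for 27.5% of all genes, and in 0 of 10 every Met library was below DMSO (29.4% of all genes). Under FK866 alone, *NR1D2* was again the only DEG, where 3.49% of all genes were called, 2.73% higher and 0.754% lower. Without overlap, *PER1*, *PER3* and *CRY1* were higher (17.2% of all genes) and *DBP* was lower (21.6%). Met and FK share the DMSO libraries, so both sets of values lean on the same controls. Nothing is read from these counts either.

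The second question was what FK866 added to metformin. All 10 log2 fold changes of Met+FK against Met were above 0, from 0.07 to 0.79 with a median of 0.25, against a median of 0.01 for all genes. In 6 of the 10 genes, *PER1*, *PER2*, *CRY2*, *BHLHE40*, *NR1D1* and *DBP*, every Met+FK library was above every Met library, as in 7.88% of all genes tested, and in 0 of 10 every library was below (5.56% of all genes). The DEGs in this comparison were few, 8 higher (0.0520%) and 1 lower (0.00650%) of 15376, and *PER1* was 1 of those higher. The replicate block called 18 higher and 7 lower, and DESeq2 16 and 4, with *NR1D1* and *DBP* among those higher in both. *PER1*, *NR1D1*, *NR1D2* and *DBP* were called higher in Met+FK against FK, where 18.6% of all genes were called, 9.27% higher and 9.29% lower. Every Met+FK library was above every FK library in *PER1*, *CRY2*, *BHLHE40*, *NR1D1*, *NR1D2* and *DBP* (6 of 10, against 24.9% of all genes) and below in 0 of 10 (26.0%). The set was chosen with results known, among them *PER1* in Met+FK against Met. Nothing is therefore read from the counts and medians of the 10 genes in these comparisons.

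The effect of FK866 with metformin minus its effect without was 0.89 ± 0.17 for *DBP*, 0.81 ± 0.26 for *NR1D1*, 0.36 ± 0.15 for *CRY2*, 0.29 ± 0.18 for *PER1* and -0.41 ± 0.26 for *NR1D2*. None of the 10 was called in this interaction (0.0585% of all genes were called, 0.00650% with a positive and 0.0520% with a negative difference) with limma or edgeR. *DBP* and *NR1D1* were called with DESeq2, which called 263 genes with a positive and 432 with a negative difference of 15376. *DBP*, *NR1D1* and *CRY2* were called with the replicate number as a block, which called 2380 and 2534 genes, so nothing is read from these calls. With the block and the GC trend removed together, *DBP* and *NR1D1* were called and *CRY2* was not. How many of all genes were called there is not given, so nothing is read from that either. The GC slopes lay further apart between DMSO and FK than between Met and Met+FK, and with the GC trend removed the values were 0.58 for *DBP*, 0.55 for *NR1D1*, 0.17 for *CRY2*, 0.05 for *PER1* and 0.03 for *NR1D2*.

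**Figure D3:**
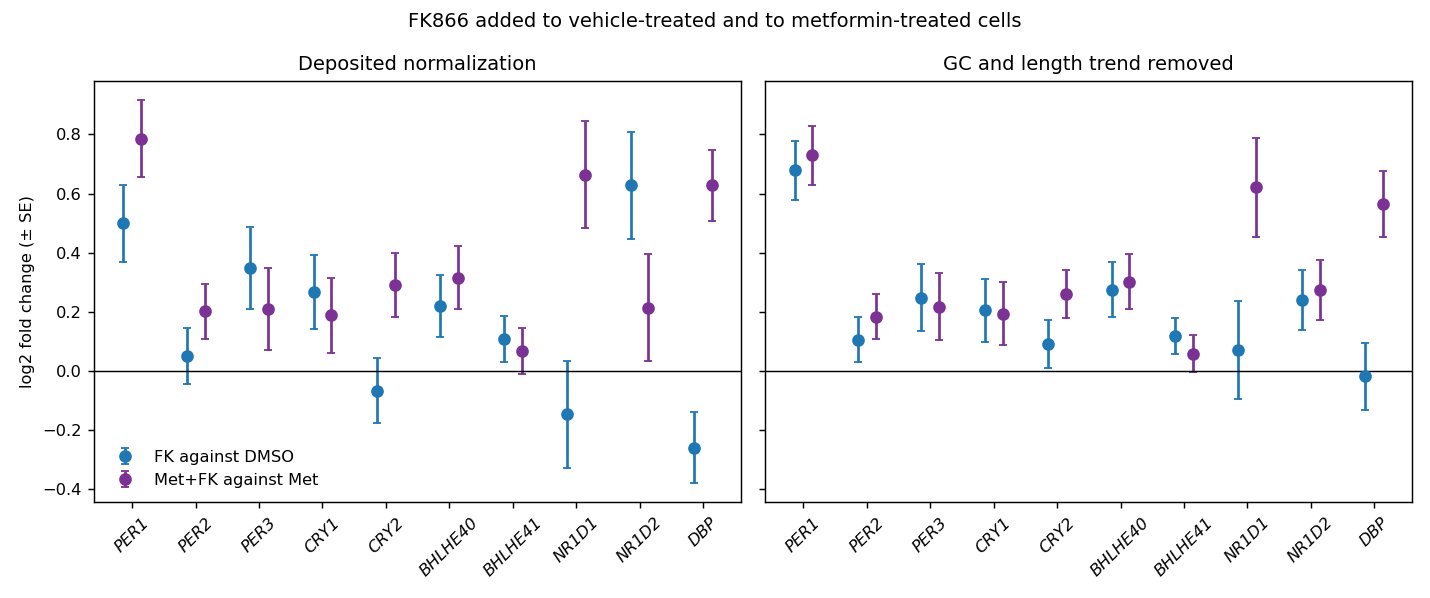
Log2 fold change on addition of FK866 (y axis; bars are SE, n = 3 per group) in vehicle-treated cells (FK against DMSO) and in metformin-treated cells (Met+FK against Met) for the 10 clock genes (x axis), with the deposited normalisation (left) and with the trend on GC content and transcript length removed (right). NR1D1 and DBP are below 0 on the left for FK alone and near 0 on the right, while their Met+FK points stay at 0.56 to 0.66.

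Per kilobase of transcript, the genes spanned a wide range of levels. In DMSO the order of mean normalised counts per kilobase was *BHLHE40* (961), *BHLHE41* (384), *CRY1* (281), *NR1D1* (239), *NR1D2* (215), *CRY2* (142), *PER2* (128), *PER1* (118), *PER3* (83.7) and *DBP* (58.8). Libraries of neighbours overlapped from *CRY1* to *NR1D2* and from *CRY2* to *PER1*, so the order within these runs is not set. In Met+FK, *NR1D2* (494), *NR1D1* (435), *BHLHE41* (417) and *CRY1* (397) overlapped as neighbours below *BHLHE40* (1366), *PER1* (269) stood clear above *CRY2* (160), and *PER2*, *PER3* and *DBP* (138, 135 and 122) overlapped as neighbours. Lengths are those of 1 transcript per gene, so levels of genes that use other isoforms are approximate.

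Over the 12 libraries, 43 of the 45 pairs of the 10 genes had a positive Pearson r of log2 values (median 0.55). Once the treatment means were taken out, 28 pairs were positive and the median was 0.09. *PER3* and *NR1D2* stayed together (r = 0.97 over all libraries, and 0.93 within treatments). All pairs are read from the same 12 libraries, whose depth and GC slope vary, so the coefficients are descriptions only. Among genes whose mean was 100 or more, the patterns most like *PER1* were those of *SPRY2* (r = 0.94), *AIFM2* (0.91) and *DUSP1* (0.91); *SPRY2* and *DUSP1* encode feedback inhibitors of MAP kinase signalling. *DUSP1* had 2878 ± 92.8 normalised counts (SD, n = 3) in DMSO, 3665 ± 203 in FK, 3085 ± 383 in Met and 4520 ± 320 in Met+FK. *SPRY2* was also nearest to *BHLHE40* (0.92). The nearest gene to *NR1D1* was *TEF* (0.95), itself a D-box factor, that to *NR1D2* was *ATE1* (0.98), that to *PER3* was *CCNG2* (0.97), and that to *CRY1* was *SNHG5* (0.95). *DBP* ran with *MYC* (0.97), but not within treatments (0.27). The nearest to *PER2*, *CRY2* and *BHLHE41* were *LGMN*, *TRIM39* and *LMTK2* (0.90, 0.93 and 0.90).

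The rest of the clock was followed with a list of 28 genes written by function, with results of the series as a whole known. Of these, 27 were in the table and 26 were tested. For these genes the adjusted p-values below are those of the fit across all genes. Because results were known when the list was written, they describe these libraries and are not independent tests. In Met against DMSO, 7 of 26 rose and 1 fell by the DEG thresholds, where 23.0% of all genes were called. In Met+FK against DMSO 10 rose and 0 fell (25.1%), in FK against DMSO 1 rose and 0 fell (3.49%), and in Met+FK against FK 6 rose and 1 fell (18.6%). Apart from FK against DMSO, the rises include *HLF*, which reached the mean of 10 through the groups where it was higher. Where every library had to reach 10, 6 rose in Met against DMSO, 9 in Met+FK against DMSO and 5 in Met+FK against FK. The falls there were 1, 0 and 1. In Met+FK against Met, limma, edgeR and DESeq2 each called 0 of 26, of which 4 had an unadjusted p under 0.05, as had 1051 of all 15376 genes. With the library scaled to the same total, the median of all genes in Met against DMSO moved from 0.01 to 0.13 and the calls over all genes from 1964 higher and 1566 lower to 2835 and 1025, so small rises and falls under metformin depend on the scaling.

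**Figure D4:**
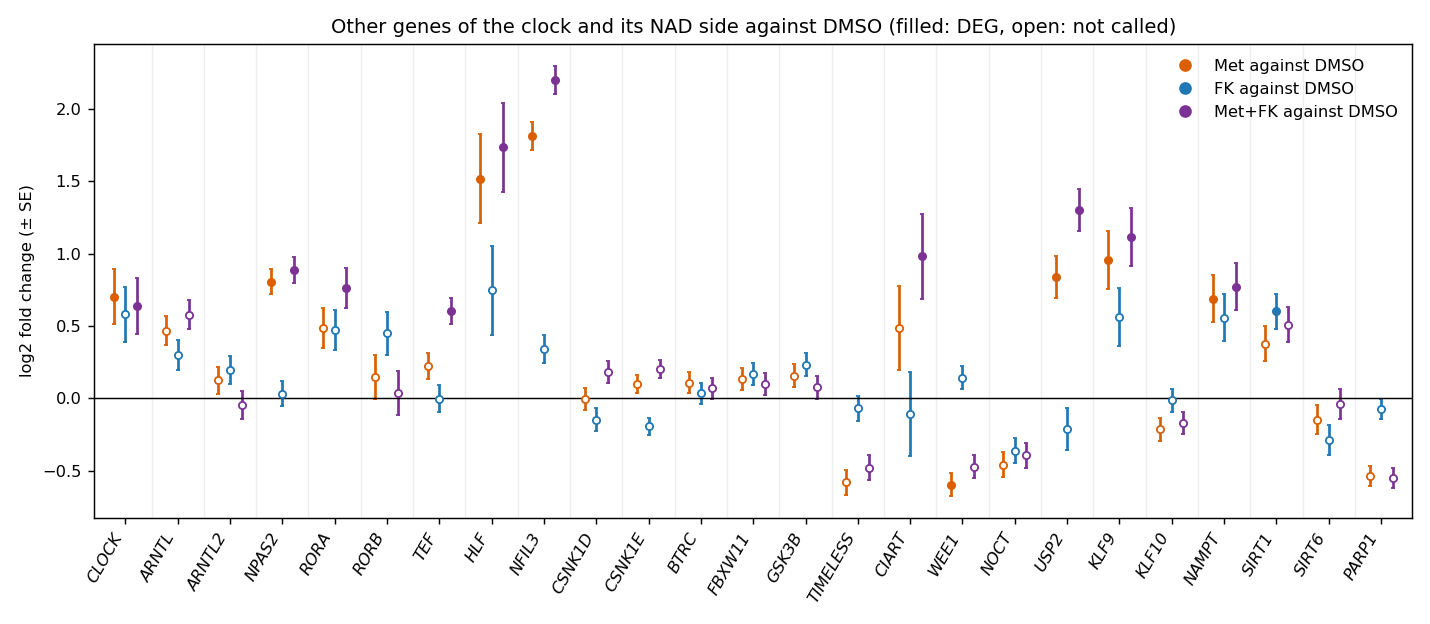
Log2 fold change against DMSO (y axis; bars are SE, n = 3 per group) of other genes of the clock and its NAD side (x axis) for Met, FK and Met+FK; filled points are DEGs. NFIL3 stands highest, at 1.81 for Met and 2.20 for Met+FK, and the genes of PER and CRY turnover shown lie within 0.5 of 0.

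*NFIL3*, a repressor at the D-box where DBP activates, changed most. Its counts were 384, 396 and 397 in DMSO, 506, 544 and 448 in FK, 1535, 1318 and 1295 in Met, and 1767, 1966 and 1708 in Met+FK. Both groups with metformin lay far above the others. It rose by 1.81 ± 0.10 in Met against DMSO (limma-trend, adjusted p = 6.73e-09) and by 2.20 ± 0.10 in Met+FK (adjusted p = 5.12e-10). *TEF*, a D-box activator, had 721, 760 and 876 counts in DMSO, 721, 840 and 789 in FK, 876, 914 and 955 in Met, and 1127, 1225 and 1222 in Met+FK. It rose in Met+FK against DMSO (0.60 ± 0.09, adjusted p = 7.71e-05) and against FK (0.61 ± 0.09, adjusted p = 0.000103), with a fold so near 1.5 that the first call was lost without DMSO replicate 1 or 2 or Met+FK replicate 2 or 3 (0.55 to 0.58), and the second without FK replicate 1 (0.55) and with the GC trend removed (0.56). *HLF*, the other activator of this family, was scarce, at 6.14 to 8.08 counts in DMSO and 18.5 to 32.4 in Met+FK. Its log2 fold change was 1.52 ± 0.31 in Met and 1.74 ± 0.31 in Met+FK, and both were called. All its DMSO libraries were below 10, so *HLF* reached the mean of 10 through the groups where it was higher. No p-value is given for it, and it was not tested where every library had to reach 10.

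Of the activators, *NPAS2*, which can stand in for CLOCK, rose by 0.81 ± 0.09 in Met (adjusted p = 4.09e-06) and 0.89 ± 0.09 in Met+FK (adjusted p = 1.19e-06), from 1347 to 1511 counts in DMSO to 2275 to 2746 in Met and 2585 to 2658 in Met+FK. *CLOCK* rose by 0.70 ± 0.19 in Met (adjusted p = 0.00685) and 0.64 ± 0.19 in Met+FK (adjusted p = 0.0117), but both calls were lost with the GC trend removed (0.26 and 0.25). Its GC content is low (37.6%) and its transcript is 10470 bases long, and the parts of the 2 trends were not told apart. The Met call was also lost without Met replicate 2 (0.58), and the Met+FK call without DMSO replicate 1 or 3 (0.54 to 0.55). In FK against DMSO *CLOCK* had 0.58 ± 0.19 (adjusted p = 0.046), just under 1.5-fold, and the libraries overlapped. That difference was called with edgeR, DESeq2, TMM scaling and the same total, and not with the GC trend removed. *ARNTL* had an adjusted p of 0.00146 in Met and 0.000261 in Met+FK with log2 fold changes of 0.47 and 0.58, both under 1.5-fold. The second lies close to that threshold and was called with edgeR (0.61), DESeq2 (0.59), TMM scaling (0.61) and the same total (0.66). *ARNTL2* had a log2 fold change of -0.04 ± 0.09 in Met+FK. *RORA*, the activator that competes with the REV-ERB receptors at the *ARNTL* promoter, rose in Met+FK (0.76 ± 0.14, adjusted p = 0.000307), a call lost with the GC trend removed (0.35).

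The genes for turnover of PER and CRY named here (*CSNK1D*, *CSNK1E*, *BTRC*, *FBXW11* and *GSK3B*) were not DEGs in any comparison. By adjusted p alone, *GSK3B* (0.23 ± 0.08, adjusted p = 0.049) was higher in FK against DMSO, while *CSNK1E* (-0.19 ± 0.06, adjusted p = 0.0397) was lower. *CSNK1E* had 9270, 8772 and 9314 counts in DMSO, 7824, 7800 and 8311 in FK, 9634, 9544 and 10128 in Met, and 10664, 10351 and 10458 in Met+FK. FK lay below DMSO and Met+FK above Met in every library. *CIART*, a repressor partner of CLOCK and BMAL1, rose in Met+FK (0.98 ± 0.29, adjusted p = 0.0108) from 10.4 to 22.5 counts in DMSO to 26.1 to 42.0, a call lost without DMSO replicate 1 or Met+FK replicate 2 (0.64 and 0.85). *TIMELESS*, which serves the replication fork as well, had a log2 fold change of -0.58 ± 0.08 in Met (adjusted p = 5.56e-05), just under 1.5-fold.

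Among output genes, *USP2* and *KLF9* rose and *WEE1* fell. *USP2*, a deubiquitinase gene with rhythmic expression in many tissues, had 71.6, 94.6 and 99.2 counts in DMSO, 80.2, 74.3 and 72.3 in FK, 157, 148 and 167 in Met, and 238, 193 and 223 in Met+FK. It rose by 0.84 ± 0.14 in Met (adjusted p = 0.000234) and 1.30 ± 0.14 in Met+FK (adjusted p = 3.51e-06). *KLF9* rose by 0.96 ± 0.20 in Met (adjusted p = 0.00118) and 1.12 ± 0.20 in Met+FK (adjusted p = 0.00033). In FK it had 0.56 ± 0.20 (adjusted p = 0.0575), with every FK library above every DMSO library. That difference was called with edgeR and DESeq2, and not with limma or with the GC trend removed. *WEE1*, the kinase that holds cells before mitosis, fell by 0.60 on the log2 scale in Met (SE 0.08, adjusted p = 2.8e-05); the fold is near 1.5, and the call was lost with edgeR (-0.57), TMM scaling (-0.56), the same total (-0.47) and without DMSO replicate 3 (-0.53). *NOCT* and *KLF10* did not pass 1.5-fold in any comparison.

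On the NAD side, *NAMPT*, the target of FK866, had 1830, 2102 and 1615 counts in DMSO, 2307, 3662 and 2351 in FK, 3160, 3392 and 2432 in Met, and 3198, 3382 and 2864 in Met+FK. It rose by 0.69 ± 0.16 in Met (adjusted p = 0.0027) and 0.77 ± 0.16 in Met+FK (adjusted p = 0.00112). Its GC content is 34.4%, and both calls were lost with the GC trend removed (0.35 and 0.49). In FK against DMSO *NAMPT* had 0.56 ± 0.16 (adjusted p = 0.0333), under 1.5-fold, with every FK library above every DMSO library. That difference was called with edgeR and DESeq2, and not with the GC trend removed. *SIRT1* was the only one of the 26 called by the main limma fit in FK against DMSO (0.60 ± 0.12, adjusted p = 0.0136). That call was lost with the GC trend removed (0.30), in a fit of the 6 libraries alone and without DMSO replicate 1 or 3 or FK replicate 2 (0.46 to 0.57). *PARP1* had a log2 fold change of -0.54 ± 0.07 in Met (adjusted p = 1.79e-05), under 1.5-fold, and *SIRT6* had -0.15 ± 0.10.

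In the interaction, limma and edgeR called 0 of the 26, of which 12 had an unadjusted p under 0.05 (4695 of 15376 genes), and DESeq2 called *CSNK1E* and *NOCT*, where it called 263 genes with a positive and 432 with a negative difference. With the replicate number as a block 13 of the 26 were called, where 2380 genes were called with a positive and 2534 with a negative difference of 15376, and with the block and the GC trend removed together 0 of the 26 were called.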

How the data were processed

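Read trimming (cutadapt), alignment to hg38 (STAR), counting of read pairs on genes (featureCounts) and normalisation (DESeq2) were done by the authors. Which annotation and strand setting they used is not given in the sources used here. They deposited a signal, namely each gene's count over the size factor of its library. Dividing by the smallest step gave whole read pairs for 100% of values within 0.01 reads. Deposited starts count from 0, so 1 was added; 83.6% of positions then equal GENCODE 44.

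The test was limma-trend (limma 3.58.1, R 4.3.3) on log2(normalised count + 1), fitted to the 12 libraries together with a mean for each treatment. The 15376 genes whose mean was 10 or more were tested. Fold changes are on that scale, and p-values were adjusted with the Benjamini-Hochberg method over all genes. A DEG passed 0.05 after adjustment and changed by more than 1.5-fold; the interaction had no fold threshold. The script was tested on simulated data. The 10 genes, the list of other clock genes and the marker lists were chosen with earlier results of these data known. Named genes are the 10, that list, the 3 genes nearest to *PER1* and 1 nearest to each other gene by Pearson r, and genes that overlap a member; some are not reported here by name, though counts over the list include them. Alternatives were edgeR 4.0.16 and DESeq2 1.42.0 on recovered read pairs, pseudocounts of 0.1 and 10, other filters and scalings, removal of a loess trend (span 0.3) on GC content and transcript length (known for 99.7% of genes tested), only the 6 libraries compared, the adjusted p-value alone, the replicate block, and leaving out each library. On read pairs, edgeR called 2142 genes higher and 1382 lower for Met against DMSO, 526 and 90 for FK against DMSO, 2270 and 1611 for Met+FK against DMSO, and 8 and 1 on adding FK866 to metformin. A chi-square test between replicates gave 5.75 to 51.9 per degree of freedom, above sampling noise, so no library was a copy of another.

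Pairing was checked from the correlation, across genes, of same-numbered libraries' deviations from their treatment means. It was 0.25, 0.42 and 0.22 for DMSO with FK and 0.17, 0.20 and 0.23 for Met with Met+FK, all above 0.1. The numbers may mark pairs there, read from the values alone. The lowest value was 0.0129 for DMSO with Met, 0.0186 for DMSO with Met+FK, 0.0233 for FK with Met and 0.0461 for FK with Met+FK. The main fits used no pairing, and the block gave each replicate number 1 effect across all 4 treatments. For Met with Met+FK, 2 of 3 were under 0.1 once the GC trend was removed (0.157, 0.0965 and 0.0687). All 3 were then above 0.1 for DMSO with FK (0.1346, 0.1747 and 0.1405) and for FK with Met (0.1179, 0.1471 and 0.1306). The remaining pairs of treatments each had a value under 0.1.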

Additional observations from a re-analysis of the deposited data

Results flagged for a closer look

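*DBP* was lower in every FK library than in every DMSO library and higher in every Met+FK library than in every Met library. The difference between these effects of FK866, with metformin minus without, was 0.89 on the log2 scale. It was not called by limma after adjustment, and was 0.58 with the GC trend removed. It was called by DESeq2 and under the replicate block, but over all 15376 genes these called 263 positive and 432 negative differences, and 2380 and 2534, respectively.

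*CSNK1E*, which encodes a kinase that marks PER proteins for degradation, had the same order of libraries, and the difference was 0.30. It was not called by limma. The same DESeq2 and block fits called it, but with the GC trend removed the difference was 0.05 and was not called, with the block or without.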

How the results depend on the processing

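Pseudocounts of 0.1 and 10 and all genes above 0 kept every count of called genes within 1.5 times. Of the 10 clock genes, Met against DMSO called 1, and 2 with the same total per library, 2 with the GC trend removed and 2 with the block as well, and 4 by adjusted p alone. FK against DMSO called 1, and 0 in a fit of the 6 libraries and 2 by adjusted p alone; leaving out 1 library gave 0 to 1. Met+FK against Met called 1, and 2 in a fit of the 6 libraries, 3 with the replicate block, 2 with the block and the GC trend removed and 3 with DESeq2; leaving out 1 library gave 0 to 1. The interaction called 0, and 3 with the block, 2 with the block and the GC trend removed and 2 with DESeq2. Leaving out 1 library gave 0 to 1. How many of all genes were called in the fit of the 6 libraries, or with the block and the GC trend removed, is not given. Nothing is read from the counts under those settings. Of the 26 other genes, Met against DMSO called 8, Met+FK against DMSO 10 and Met+FK against FK 7, and by adjusted p alone 15, 17 and 14. At an unadjusted limma-trend p under 0.05, 16, 19 and 16 of the 26 passed, as did 8799, 8874 and 7697 of all 15376 genes. For FK against DMSO these were 15 of the 26 and 6488 of all genes. How many of all genes passed adjusted p alone is not given. Nothing is read from those counts, for the 10 or the 26 genes. FK against DMSO called 1, and 2 with the same total, 2 with TMM, 0 in a fit of the 6 libraries, 0 with the GC trend removed, with or without the block, 4 with edgeR, 4 with DESeq2 and 11 by adjusted p alone; leaving out 1 library gave 0 to 5. The interaction called 0, and 13 with the block, 0 with the block and the GC trend removed and 2 with DESeq2; leaving out 1 library gave 0 to 5. The causes of these differences were not tested. Over all genes, Met against DMSO called 1964 higher and 1566 lower. It called 2835 and 1025 with the same total, and 1564 and 1498 with the GC trend removed. FK against DMSO called 420 and 116, 478 and 95 with the same total, and 483 and 93 with TMM. It called 163 and 34 with the GC trend removed, 526 and 90 with edgeR, and 408 and 89 with DESeq2. Over all genes, the block moved the calls of Met+FK against Met from 8 higher and 1 lower to 18 and 7, and those of the interaction from 1 and 8 to 2380 and 2534. For the 10 and the 26 genes it moved no other count by over 1.5 times. No difference of a named gene changed direction while called. With 3 libraries a group, differences of *HLF* and *CIART*, at under 50 counts, are the least precise.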
